A study of Mus musculus with 6 samples.

Results

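The genes described here are the CDK inhibitors and the D-type cyclins, 10 genes taken by symbol from a table of 55471 genes: Cdkn1a, Cdkn1b and Cdkn1c of the Cip/Kip family, Cdkn2a, Cdkn2b, Cdkn2c and Cdkn2d of the Ink4 family, and the cyclins Ccnd1, Ccnd2 and Ccnd3. They were measured by sequencing of polyA RNA from 10T1/2 cells, a mouse embryonic fibroblast line, in 3 wild-type (WT) libraries and 3 libraries of 10T1/2 cells labelled Ranbp2 KO. Ranbp2 encodes a large protein on the cytoplasmic side of the nuclear pore and was targeted there with CRISPR/Cas9. Neither group received a treatment, and both were grown in the same serum-containing medium. The labels give biological replicates but do not say whether the edited cells are 1 clone or several, so the p-values rest on how much these libraries vary and on nothing beyond them.

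Entry into the cell cycle is driven by D-type cyclins, which are made in response to growth factors and activate the kinases Cdk4 and Cdk6. These kinases phosphorylate the retinoblastoma protein and its relatives and so release E2F factors, which turn on the genes of S phase. Ink4 proteins bind Cdk4 and Cdk6 and block their pairing with D-type cyclins, whereas Cip/Kip proteins bind whole cyclin-kinase complexes, mainly those with Cdk2, and also help D-type cyclins to assemble with their kinases. In fibroblasts different inhibitors rise with DNA damage, contact inhibition, serum withdrawal or replicative age, and not each of them with all of these.

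Library totals ran from 32072817 to 46321967 expected counts. Ranbp2 itself was not lower in the edited cells: its 3 KO-labelled values were 288.9, 292.9 and 294.0 CPM (counts scaled to library size), against 219.8, 249.0 and 250.1 CPM in WT, a log2 difference of 0.28 (SE 0.07, adjusted p = 0.012 by edgeR). Counts per gene cannot reveal an edit to which the transcript level is blind, so the libraries are called KO-labelled and all differences are KO-labelled minus WT. All 10 fibroblast and mesenchymal markers examined were at 1 CPM or more in at least 1 library. Of 35 markers of other cell types, 30 stayed below 1 CPM in every library, 7 of them at 0, among them Myod1, Myog and Adgre1. The exceptions were Cdh1, Pecam1, Tek, Cd68 and Des. The summed endothelial markers were at 20.9 to 24.8 CPM in KO-labelled and 35.3 to 39.5 CPM in WT libraries, nearly all of it Tek, and the summed epithelial markers at 6.14 to 9.04 and 2.16 to 2.60 CPM, mostly Cdh1. The part of these markers in the results below was not tested. In bulk RNA, fewer cells that make a transcript and less of it per cell cannot be told apart.

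Of the 10 genes, 9 passed the filter on low counts, and 5 of these 9 were called, that is, had an adjusted p below 0.05 over all genes tested: Cdkn1b, Cdkn2a and Cdkn2c were higher, and Cdkn1a and Ccnd1 lower, in KO-labelled libraries. The same rule called 38.9% of all 15454 genes tested, 17.6% higher and 21.3% lower. The groups did not overlap for the same number of members, 5 of 9, against 51.4% of all genes. The median log2 difference of the 9 genes was -0.12, and that of all genes 0.01. The log2 change of Cdkn1a was the largest of the 9 and was larger in size than that of 95.5% of genes tested, whereas that of Ccnd1 exceeded 79.2% and that of Cdkn2c 73.6%. For a single gene, an exact two-sided permutation test of 3 against 3 libraries cannot go below p = 0.1, which each of the 5 called genes reached.

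**Figure D1:**
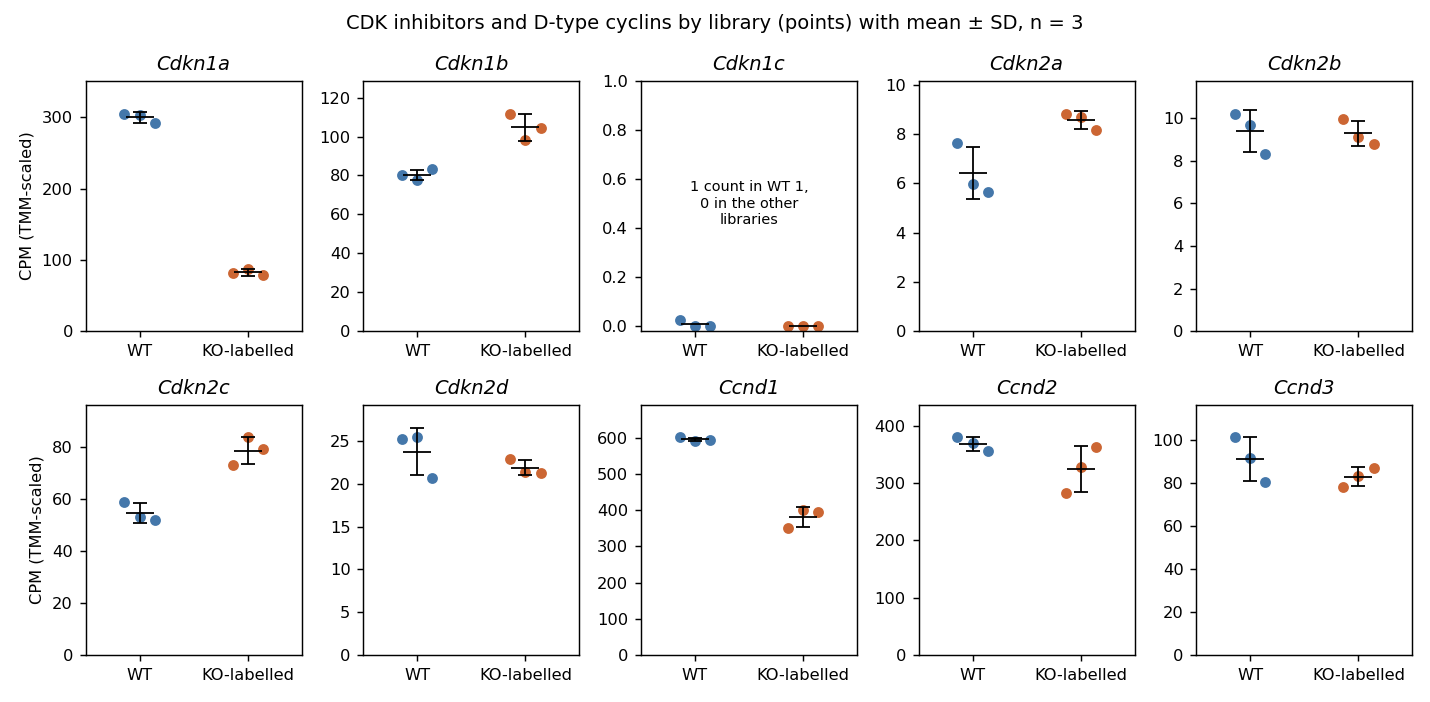
Expression in CPM on TMM-scaled library sizes (vertical axes, each with its own range) of the 10 genes in 3 WT and 3 KO-labelled libraries. Points are libraries, and black bars are mean ± SD (mean only for Cdkn1c). Cdkn1a and Ccnd1 were below, and Cdkn1b, Cdkn2a and Cdkn2c above, every WT value in all 3 KO-labelled libraries; Cdkn1c had 1 count in 1 WT library.

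Cdkn1a, the gene of p21, the Cip/Kip inhibitor that p53 turns on after DNA damage, showed the largest change of the family. It lies on chromosome 17 at 29090976 to 29100727 (GRCm38, plus strand). WT libraries held 305, 303 and 292 CPM, and KO-labelled libraries 81.4, 87.2 and 78.7 CPM. The 2 groups were far apart, and within each the libraries differed little, averaging 299.8 ± 7.26 CPM for WT against 82.4 ± 4.37 for the KO-labelled ones (SD, n = 3). Cdkn1a thus fell by 1.86 on the log2 scale (SE 0.07, 95% interval -2.02 to -1.71, adjusted p = 7.71e-08 by edgeR), a 3.64-fold lower level. Its neighbours were mostly not lower: the 237 other genes tested within 5 Mb had a median log2 difference of 0.27, with 85 called higher and 13 lower. Only 1.27% of those neighbours had a lower log2 difference than Cdkn1a. Their median was not particular to the window: the 781 other genes tested on chromosome 17 had a median of 0.275, with 299 called higher and 73 lower.

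The annotation gives Cdkn1a more than 1 start, and the deposited value sums its 5 transcripts, so it does not show which start the difference belongs to. The bases before its 2 RefSeq starts are shown because they differ in content, at chr17:29090729-29090975 for the upstream start and chr17:29093519-29093768 for the downstream one (GRCm38.p6, plus strand, from RefSeq). Capitals mark matches to the p53 consensus (20 bases as a pair of adjacent half-sites, with at most 1 mismatch) in the upstream sequence, and to GGGCGG, the core of Sp1 sites, in the downstream one.
Cdkn1a upstream start: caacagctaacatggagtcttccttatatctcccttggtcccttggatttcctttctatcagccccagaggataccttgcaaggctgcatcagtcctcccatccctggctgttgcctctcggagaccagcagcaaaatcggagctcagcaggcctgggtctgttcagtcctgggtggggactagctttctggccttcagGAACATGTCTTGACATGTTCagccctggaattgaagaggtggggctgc
Cdkn1a downstream start: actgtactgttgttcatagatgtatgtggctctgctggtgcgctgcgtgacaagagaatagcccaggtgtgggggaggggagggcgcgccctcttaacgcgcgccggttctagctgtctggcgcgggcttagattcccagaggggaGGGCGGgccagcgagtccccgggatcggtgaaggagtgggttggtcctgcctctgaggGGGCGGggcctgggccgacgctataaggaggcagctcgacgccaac
The p53 match lies 51 to 32 bases before the upstream start and 2841 bases before the downstream one, at chromosome 17, 29090928 to 29090947, and departs from the consensus at 1 base. Such a match was found in the same 250-base window of 25 of 32851 promoters (0.08%), and among members in this promoter alone. This search was added after the sequence of Cdkn1a had been seen, and a match of letters is not a measured site.

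Cdkn1b encodes p27, the Cip/Kip inhibitor that holds resting cells out of the cycle and is controlled in large part by protein turnover. It lies on chromosome 6 at 134920401 to 134925513 (plus strand). WT libraries held 80.1, 77.8 and 83.1 CPM, and KO-labelled libraries 111.7, 98.1 and 104 CPM. Every KO-labelled value was above every WT value, averaging 105 ± 6.83 CPM where WT averaged 80.3 ± 2.64. The log2 difference of Cdkn1b was 0.38 (SE 0.07, 95% interval 0.22 to 0.54, adjusted p = 0.00216 by edgeR), a rise of 30.3%. The 42 genes tested within 5 Mb stood at a median of 0.21, and the 781 genes of chromosome 6 at 0.17, so Cdkn1b exceeded its neighbours' median by 0.17; the part of such a regional shift in its rise was not tested.

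Cdkn1c, the gene of p57, a Cip/Kip inhibitor expressed from the maternal allele, was the 1 member not detectable at this depth. Over the 3 WT libraries it had 1 count, in WT library 1, and over the 3 KO-labelled libraries 0 counts, which allows up to 0.0276 CPM (3 counts over the group, counting error only). Both groups were under the floor of 3 counts, so no fold is given. The gene lies at chromosome 7, 143458339 to 143461050 (minus strand), in an imprinted domain. Within 0.5 Mb of it, 15 of 44 annotated genes had no count in any library. The following neighbours were chosen after their values were seen. The maternally expressed genes Kcnq1, Phlda2 and Ascl2 had 5, 3 and 4 counts over all 6 libraries, while Slc22a18, maternally expressed as well, had 231 and did not pass the test (1.12 ± 0.113 CPM in KO-labelled against 0.847 ± 0.157 in WT libraries). Kcnq1ot1, the paternally expressed noncoding RNA of the domain, was present at 15.4 ± 4.66 CPM in KO-labelled and 15.1 ± 0.443 CPM in WT libraries, and Nap1l4 at 97.0 ± 4.50 and 101 ± 3.41 CPM. Kcnq1ot1 and Nap1l4 did not pass the test, and Kcnq1, Phlda2 and Ascl2 were too low to be tested. Other genes of the window were expressed too. Tssc4 stood at 21.5 ± 2.42 CPM in KO-labelled and 22.7 ± 2.23 CPM in WT libraries and did not pass. Cd81 (218 ± 11.5 and 287 ± 9.76 CPM) and Osbpl5 (37.0 ± 2.87 and 49.7 ± 2.29 CPM) were called lower. Of the 15 genes tested in the window, 2 were called higher and 3 lower, against 17.6% and 21.3% of all genes tested. The largest difference was that of Tspan32, a tetraspanin gene, at 39.7 ± 1.54 CPM in KO-labelled against 3.19 ± 0.192 in WT libraries.

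The makeup of the Cip/Kip family differed between the groups. Levels of different genes are compared per kilobase of merged exons. In WT libraries Cdkn1a stood at 84.4 ± 2.04 and Cdkn1b at 17.7 ± 0.579 CPM per kilobase, and Cdkn1a made up 83.0%, 83.3% and 81.8% of the family's sum. In KO-labelled libraries the levels overlapped, with means of 23.2 and 23.0 CPM per kilobase, and Cdkn1a made up 48.3%, 53.3% and 49.2%. The ratio of Cdkn1a to Cdkn1b, per kilobase, went from 4.79 ± 0.258 in WT to 1.01 ± 0.111. The family's summed level was 102 ± 1.60 CPM per kilobase in WT and 46.2 ± 1.21 in KO-labelled libraries. How equal the 2 inhibitors were in KO-labelled libraries depends on the length used: per kilobase of the longest transcript, Cdkn1a stood above Cdkn1b in both groups, at a ratio of 8.18 ± 0.440 in WT and 1.73 ± 0.189 in KO-labelled libraries.

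Both genes of the Ink4 locus on chromosome 4 were expressed in this line, at a low level. Cdkn2a, at 89274471 to 89294653 (minus strand), encodes 2 unrelated proteins from 2 starts: p16, an inhibitor of Cdk4 and Cdk6, and the p19 Arf protein, which stabilises p53 by binding Mdm2. It had 237 to 339 counts in every library. WT libraries held 7.62, 5.99 and 5.63 CPM, and KO-labelled libraries 8.83, 8.71 and 8.15 CPM. The KO-labelled values were all above the WT values, although WT library 1 stood closer to the lowest of them than to the next WT value. The WT mean was 6.41 ± 1.06 and the KO-labelled mean 8.56 ± 0.363 CPM. The log2 difference of Cdkn2a was 0.42 (SE 0.13, 95% interval 0.12 to 0.71, adjusted p = 0.0316 by edgeR). This call is the least secure of the 5: it was lost without any single library other than WT library 1, with adjusted p-values from 0.054 to 0.118 and log2 differences from 0.33 to 0.45. The 29 genes tested within 5 Mb stood at a median of 0.24, inside the interval of Cdkn2a.

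The deposited value of Cdkn2a sums both of its transcripts, which share 575 bases of exon, 67.5% of the 852 bases of the one and 64.2% of the 895 bases of the other. The count therefore does not tell p16 from Arf. The bases before the 2 RefSeq starts are shown to set the separate promoters apart (GRCm38.p6, minus strand, printed 5′ to 3′), at chr4:89294654-89294869 for the upstream start, that of Arf, and chr4:89282193-89282442 for the downstream start, that of p16. Capitals mark TTTCCCGC, a form of the E2F motif, and GGGCGG.
Cdkn2a upstream start: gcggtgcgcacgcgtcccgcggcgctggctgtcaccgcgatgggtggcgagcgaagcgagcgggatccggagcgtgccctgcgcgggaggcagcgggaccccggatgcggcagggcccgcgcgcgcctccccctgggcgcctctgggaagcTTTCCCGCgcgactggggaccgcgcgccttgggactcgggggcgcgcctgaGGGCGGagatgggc
Cdkn2a downstream start: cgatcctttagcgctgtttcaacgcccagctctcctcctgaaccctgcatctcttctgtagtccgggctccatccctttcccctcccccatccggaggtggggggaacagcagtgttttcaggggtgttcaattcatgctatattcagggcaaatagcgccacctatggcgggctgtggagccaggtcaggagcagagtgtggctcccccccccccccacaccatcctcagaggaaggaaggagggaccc
Over the full 250-base windows before these starts, the upstream one was 78.4% G or C with 1 E2F match and 2 GGGCGG matches, and the downstream one was 60.0% G or C with no match to any of the motifs searched.

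Cdkn2b, the gene of the Ink4 inhibitor p15, a known target of TGF-beta, lies next to Cdkn2a at 89306299 to 89311039 (minus strand). WT libraries held 10.2, 9.71 and 8.32 CPM, and KO-labelled libraries 9.95, 9.14 and 8.79 CPM. The groups overlapped, and the log2 difference of Cdkn2b was -0.02 with a 95% interval of -0.27 to 0.23 (adjusted p = 0.912 by edgeR). Per kilobase the ranges of Cdkn2a and Cdkn2b overlapped in both groups, at 5.47 ± 0.902 and 6.77 ± 0.706 CPM per kilobase in WT and 7.30 ± 0.309 and 6.69 ± 0.429 in KO-labelled libraries. Within 0.5 Mb of these genes 38 genes are annotated, 15 of them without a count in any library. Of the 12 tested, 3 were called higher, Cdkn2a among them, and 2 lower, against 17.6% and 21.3% of all genes tested. The other called genes were Gm13288 and Gm12609, higher by 0.82 and 2.11 on the log2 scale, and AL805899.1 and Gm12602, with log2 differences of -0.56 and -0.89. Gm12609 was very low, at 0.409 ± 0.166 CPM in KO-labelled and 0.0929 ± 0.00506 CPM in WT libraries. Chosen after its values were seen, the adjacent Mtap, an enzyme of methionine salvage, stood at 222 ± 10.9 CPM in KO-labelled and 226 ± 13.0 CPM in WT libraries.

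Cdkn2c, the gene of p18, had the largest rise of the members. It lies on chromosome 4 at 109660876 to 109667189 (minus strand), away from the Cdkn2a locus. WT libraries held 58.8, 53.1 and 51.7 CPM, and KO-labelled libraries 73.0, 83.6 and 78.9 CPM. The groups were apart, averaging 54.5 ± 3.75 CPM in WT and 78.5 ± 5.29 in the other group. The log2 difference of Cdkn2c was 0.53 (SE 0.08, 95% interval 0.35 to 0.71, adjusted p = 0.00069 by edgeR), a rise of 44.0%. The 49 genes tested within 5 Mb stood at a median of 0.25, below that interval, with 19 called higher and 6 lower.

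Cdkn2d, the gene of p19 of the Ink4 family (a protein other than Arf), lies on chromosome 9 at 21288410 to 21291407. It stood at 25.3, 25.5 and 20.7 CPM in the WT libraries, and KO-labelled values were 23.0, 21.5 and 21.3 CPM. WT library 3 lay below all KO-labelled values and the other two WT libraries above them. The log2 difference of Cdkn2d was -0.12 with a 95% interval of -0.32 to 0.09 (adjusted p = 0.344 by edgeR), close to the median of -0.18 for the 83 genes tested within 5 Mb. The 866 other genes tested on chromosome 9 had a median of -0.17, with 58 called higher and 302 lower. Within the Ink4 family, Cdkn2c had the highest level per kilobase in both groups. Its share of the family's sum was 42.7% ± 1.74 in WT and 51.1% ± 2.61 in KO-labelled libraries, while that of Cdkn2d was 31.7% ± 1.74 in WT and 24.4% ± 1.34 in KO-labelled libraries.

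**Figure D2:**
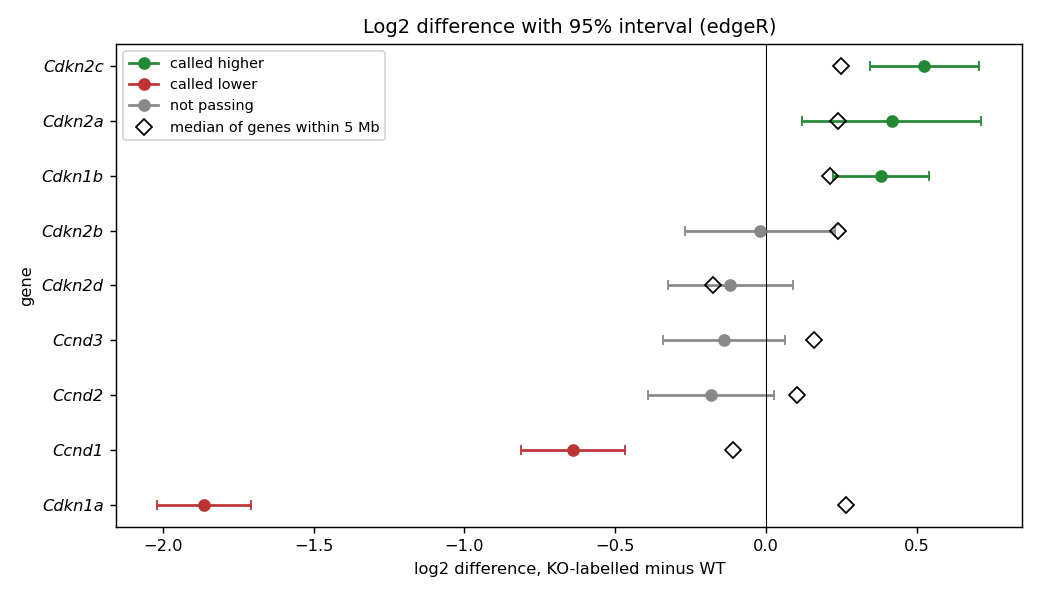
Log2 differences (horizontal axis, KO-labelled minus WT) of the 9 genes that passed the count filter, with 95% intervals from edgeR; colours give the call and open diamonds the median of other genes tested within 5 Mb. Cdkn1a at -1.86 lies far from its neighbours' median of 0.27, whereas the diamond of Cdkn2a at 0.24 falls inside its interval.

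Promoter sequences were found in RefSeq for 7 of the 10 members, with 11 starts among them; Cdkn1c, Ccnd1 and Ccnd2 had none in the table. GGGCGG, searched on both strands over the 250 bases before each start, was present in 7 of these 11 windows, against 32.74% of the windows of all 32851 promoters. The windows with most matches, 3 each, were those of 1 of the 2 starts of Cdkn2c and of Cdkn2d. E2F motifs (TTTGGCGC or TTTCCCGC) were present in 1.3% of all windows and among members in that of the Cdkn2a upstream start. The E-box CACGTG (6.02% of all windows) and the AP-1 motif TGANTCA (6.75%) were in none of the members' windows. Of the members' windows, all but that of the second Cdkn2c start, at 42.8%, held more G and C than the median of all promoters, 52.4%. GGGCGG is itself made of G and C, and its share was not compared with promoters of like content.

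Among the D-type cyclins, Ccnd1 fell and the other two did not pass the test. Ccnd1, the cyclin most responsive to growth factors in fibroblasts, lies on chromosome 7 at 144929931 to 144939925 (minus strand) and had the highest level of the 10 genes per kilobase in both groups. WT libraries held 601, 591 and 595 CPM, and KO-labelled libraries 350.3, 401 and 396 CPM. All KO-labelled values were below the WT values, and they spread more widely, averaging 382 ± 27.9 CPM where WT averaged 596 ± 5.08. Ccnd1 fell by 0.64 on the log2 scale (SE 0.08, 95% interval -0.81 to -0.47, adjusted p = 0.000162 by edgeR), a change of -35.8%. The 83 other genes tested within 5 Mb had a median log2 difference of -0.11.

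Ccnd2, on chromosome 6 at 127125162 to 127152193, is the D-type cyclin with prominent roles in gonads and brain. It stood at 379.8, 370.5 and 356 CPM in the WT libraries, and KO-labelled values were 283, 329 and 363 CPM. KO-labelled library 3 lay within the WT range and the other two below it. The log2 difference of Ccnd2 was -0.18 with a 95% interval of -0.39 to 0.03 (adjusted p = 0.149 by edgeR), so a fall of the size seen for Ccnd1 lies outside the interval while a smaller one does not. Ccnd3, on chromosome 17 at 47505051 to 47599691, is the D-type cyclin best known from lymphocytes and from cells that leave the cycle to differentiate. It stood at 101, 91.9 and 80.8 CPM in the WT libraries, and KO-labelled values of 78.3, 83.4 and 87.3 CPM overlapped with these. Its log2 difference was -0.14 with a 95% interval of -0.34 to 0.06 (adjusted p = 0.251 by edgeR). Neighbours of Ccnd2 and Ccnd3 within 5 Mb had median log2 differences of 0.10 and 0.16, and the other genes of their chromosomes 0.169 and 0.275.

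Exons of all 3 cyclin genes overlap genes on the other strand, and the strand setting of the counts is not given in the sources used here, so reads of the partners cannot be told apart from theirs in the overlaps. Ccnd1 shares 1100 bases with LTO1, which had 5397.4 counts over all libraries against 118572 for Ccnd1. Ccnd3 shares 361 bases with Bysl, a ribosome biogenesis gene with 11482 counts against 20808 for Ccnd3, and Ccnd2 shares 372 bases with Gm43126, with 1425.3 counts against 82741. Ccnd2 also shares 368 bases with 9330179D12Rik, which had 129.7 counts and was called higher, with a log2 difference of 1.25 (adjusted p = 0.0207 by edgeR). The other three partners were not called, with log2 differences of -0.15 for LTO1, -0.16 for Bysl and -0.23 for Gm43126. Cdkn1a shares 273 bases with AC167363.2, which had 323.9 counts against 47813 and was called lower.

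Ccnd1 made up most of the D-type cyclin mRNA in both groups, but a smaller part in KO-labelled libraries. Its share of the family's CPM per kilobase was 71.1%, 71.6% and 72.9% in WT and 65.6%, 65.7% and 63.4% in KO-labelled libraries. Ccnd2 made up 22.2% ± 0.376 in WT and 27.5% ± 1.36 in KO-labelled libraries, and Ccnd3 5.90% ± 0.563 and 7.57% ± 0.276. The summed level of the 3 cyclins was 176 ± 3.20 CPM per kilobase in WT and 125 ± 10.3 in KO-labelled libraries. Because the Cip/Kip sum was lower by more, the ratio of the D-type cyclin sum to the Cip/Kip sum was 1.73 ± 0.0112 in WT and 2.72 ± 0.289 in KO-labelled libraries, and the 3 values of each group did not overlap. The Ink4 sum was 47.7 ± 4.32 CPM per kilobase in WT and 57.2 ± 1.40 in KO-labelled libraries. These sums describe mRNA and carry no test.

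**Figure D3:**
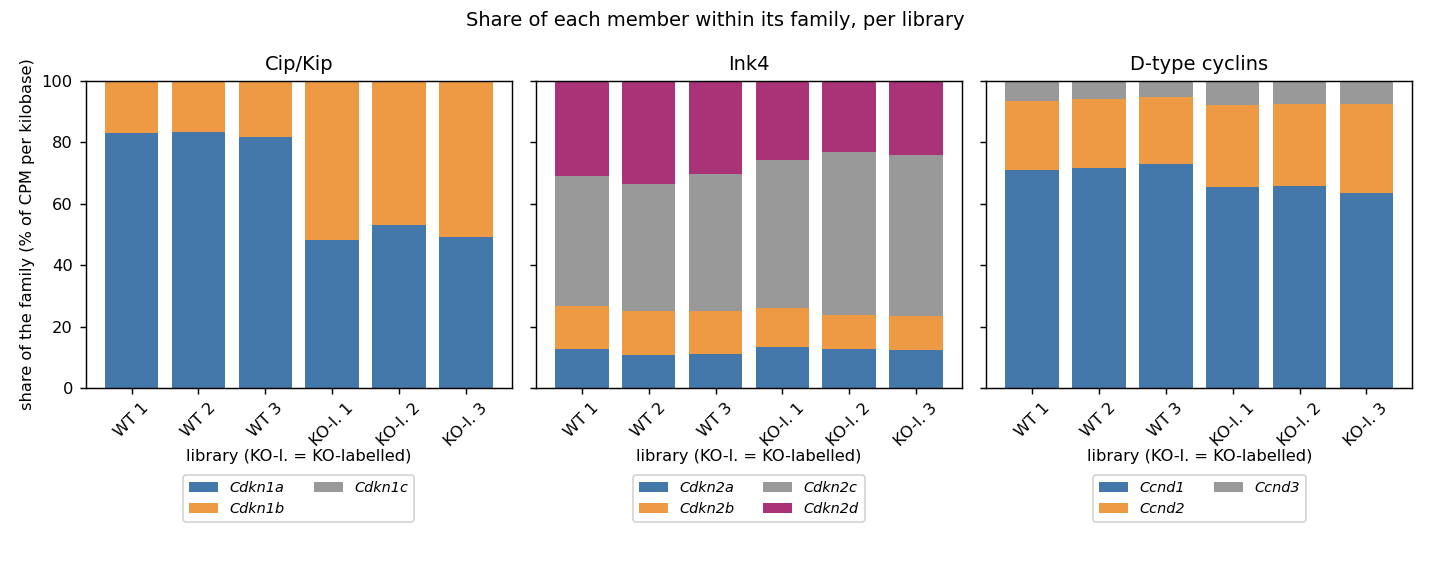
Share of each gene in its family's summed CPM per kilobase of merged exons (vertical axis, percent) in each WT and KO-labelled (KO-l.) library, for the Cip/Kip inhibitors, the Ink4 inhibitors and the D-type cyclins. Cdkn1a takes 81.8% to 83.3% of the Cip/Kip sum in WT and 48.3% to 53.3% in KO-labelled libraries; Cdkn1c is too low to be seen.

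In WT libraries the order of levels per kilobase was Ccnd1, Cdkn1a, Ccnd2, Cdkn2c, Cdkn1b, Cdkn2d, Ccnd3, Cdkn2b, Cdkn2a and Cdkn1c, and only Cdkn2b and Cdkn2a overlapped with their neighbour in that order. In KO-labelled libraries the order was Ccnd1, Ccnd2, Cdkn2c, Cdkn1a, Cdkn1b, Cdkn2d, Ccnd3, Cdkn2a, Cdkn2b and Cdkn1c. There Ccnd2 overlapped with Cdkn2c, Cdkn1a with Cdkn1b, and Cdkn2a with Cdkn2b. The order depends in part on the length used. Per kilobase of the longest transcript, Cdkn1a in KO-labelled libraries stood at 39.6 ± 2.10 and Cdkn2c at 31.8 ± 2.14, apart and in the reverse order. Cdkn2a then stood above Cdkn2b in both groups, with overlap in WT only. By that length Ccnd3 moved up in both orders, to rank 4 in WT and rank 6 in KO-labelled libraries. Its exons in GENCODE merge to 8775 bases, and its longest transcript there has 3858. The deposited value of Ccnd3 sums 21 transcripts.

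Partners and targets of these genes were taken from 13 lists of 170 different genes. The lists were chosen with earlier results of these data known, so their called shares only describe them and are no independent support. Cdk4, Cdk6, Trp53 and Mki67 are named for their roles, outside the rule for named genes. The kinases that D-type cyclins activate did not pass the test: Cdk4 stood at 332 CPM in KO-labelled and 363 CPM in WT libraries (log2 difference -0.13, adjusted p = 0.148 by edgeR) and Cdk6 at 38.9 and 36.5 CPM (0.09, adjusted p = 0.347). Of 10 G1 kinases and assembly factors, 1 rose and 2 fell, a called share of 30.0%. Over all genes tested this share was 38.9%, with 17.6% higher and 21.3% lower. Wee1, a kinase that restrains Cdk1, rose by 0.22 (SE 0.06), and Cdk7, of the CDK-activating kinase, fell by 0.44 (SE 0.09) on the log2 scale. Of 7 later cyclins with Cdk1, 3 rose and none fell, a called share of 42.9%, near that of all genes. Ccne1, the cyclin that activates Cdk2 at the start of S phase, went from 21.3 ± 0.894 in WT to 29.7 ± 0.599 CPM, and Ccna2, the cyclin of S phase and G2, from 205 ± 3.70 to 258 ± 9.96 CPM. The third to rise was Ccne2.

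Of 13 genes of the retinoblastoma family and the E2F factors, 3 rose and 2 fell. Their called share of 38.5% was near the 38.9% of all genes tested. Rb1, the target of the cyclin D kinases, fell by 0.35 (SE 0.08) and E2f6, a repressive E2F, by 0.48 (SE 0.07) on the log2 scale. Of 22 E2F target genes of S phase entry, 18 rose, none fell and 4 did not pass, a called share of 81.8%. Their median log2 difference was 0.41 against 0.01 over all genes. Uhrf1, which guides DNA methylation after replication, went from 151 ± 13.1 to 264 ± 16.7 CPM, and Mcm6, of the replicative helicase, from 200.4 ± 0.780 to 333 ± 11.4 CPM. Of 10 proliferation markers, 2 rose, 1 fell and 7 did not pass, a called share of 30.0% with a median of 0.07. Cenpf and Bub1, of the kinetochore, rose by 0.40 (SE 0.07) and 0.23 (SE 0.07) on the log2 scale. The marker that fell was Aurka, by 0.22 (SE 0.08). Mki67 stood at 702 CPM in KO-labelled and 604 CPM in WT libraries and did not pass (adjusted p = 0.0794 by edgeR).

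Of 20 listed transcription factors known to act on genes of CDK inhibitors, 19 were tested, with a median of -0.35. Of these 11 fell, 1 rose and 7 did not pass, a called share of 63.2% against 38.9% of all genes. Foxo3, an activator of Cdkn1b, fell from 42.8 ± 2.59 in WT to 18.1 ± 2.77 CPM, and Myc, which represses Cdkn1a and Cdkn2b, from 72.1 ± 4.57 to 37.4 ± 1.93 CPM. Trp53, the gene of p53, fell by 0.37 on the log2 scale (adjusted p = 0.00229 by edgeR). Of 23 p53 target genes tested other than Cdkn1a, 19 fell, 1 rose and 3 did not pass. Their called share was 87.0% and their median -0.89. Perp fell from 23.7 ± 0.426 to 1.14 ± 0.261 CPM and Eda2r fell by 2.01 (SE 0.09) on the log2 scale. The controls of p53 activity split, with 4 of 11 higher and 3 lower, a called share of 63.6%. Mdm2, the ubiquitin ligase that degrades p53 and is itself a p53 target, fell by 1.32 (SE 0.11), and Ccng1, also a target, by 0.96 (SE 0.10) on the log2 scale.

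Of 14 transcription factors known to act on Ccnd1, 12 fell, 1 rose and 1 did not pass, with a median of -0.47. Their called share was 92.9%, against 38.9% of all genes tested. Stat3, which cytokine receptors activate, fell from 160 ± 16.3 in WT to 71.1 ± 4.33 CPM. Fosl2, whose product joins AP-1, was at 169 ± 5.39 in WT and fell to 95.7 ± 3.23 CPM. Of 10 Polycomb and related genes known to act on the Ink4 locus, 3 rose and 1 fell, a called share of 40.0%, near that of all genes. Ezh2, the methyltransferase of the second Polycomb complex, rose by 0.54 (SE 0.07), and Suz12, its partner, by 0.41 (SE 0.07). Of 12 genes for the turnover of inhibitor proteins, 3 rose and 2 fell, a called share of 41.7%, also near that of all genes. Dtl, the substrate receptor of the ligase that degrades p21 in S phase, went from 57.1 ± 1.73 to 105 ± 1.68 CPM, and Cul4b, a cullin of such ligases, rose by 0.34 (SE 0.08). Skp2, the receptor for p27, was the third to rise, by 0.25 on the log2 scale. The 2 that fell were Ddb1 and Rnf123, with log2 differences of -0.29 (SE 0.09) and -0.34 (SE 0.08). Skp2, Ddb1 and Rnf123 lie outside the rule for named genes. The median of this list was -0.04. Of 9 genes for the turnover of D-type cyclins, 1 rose and 3 fell, a called share of 44.4%. Cryab, a small heat shock protein that also serves as a cofactor of the cyclin D1 ligase, rose by 0.43 (SE 0.06), and Fbxo31, a receptor for cyclin D1, fell by 0.50 (SE 0.14). Of 11 senescence and quiescence genes tested, 2 rose and 5 fell, a called share of 63.6%. Lmnb1, a lamin lost in senescent cells, went from 135 ± 7.52 to 209 ± 5.51 CPM. Gas6, a growth arrest gene, fell from 29.4 ± 3.14 to 5.75 ± 0.897 CPM. Gas1, another growth arrest gene, was the other to rise, from 137 ± 21.9 to 174 ± 18.5 CPM, with overlapping groups. Gas1 lies outside the rule for named genes. Several of these lists overlap in their genes, all were chosen with earlier results known, and none was tested as a set.

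**Figure D4:**
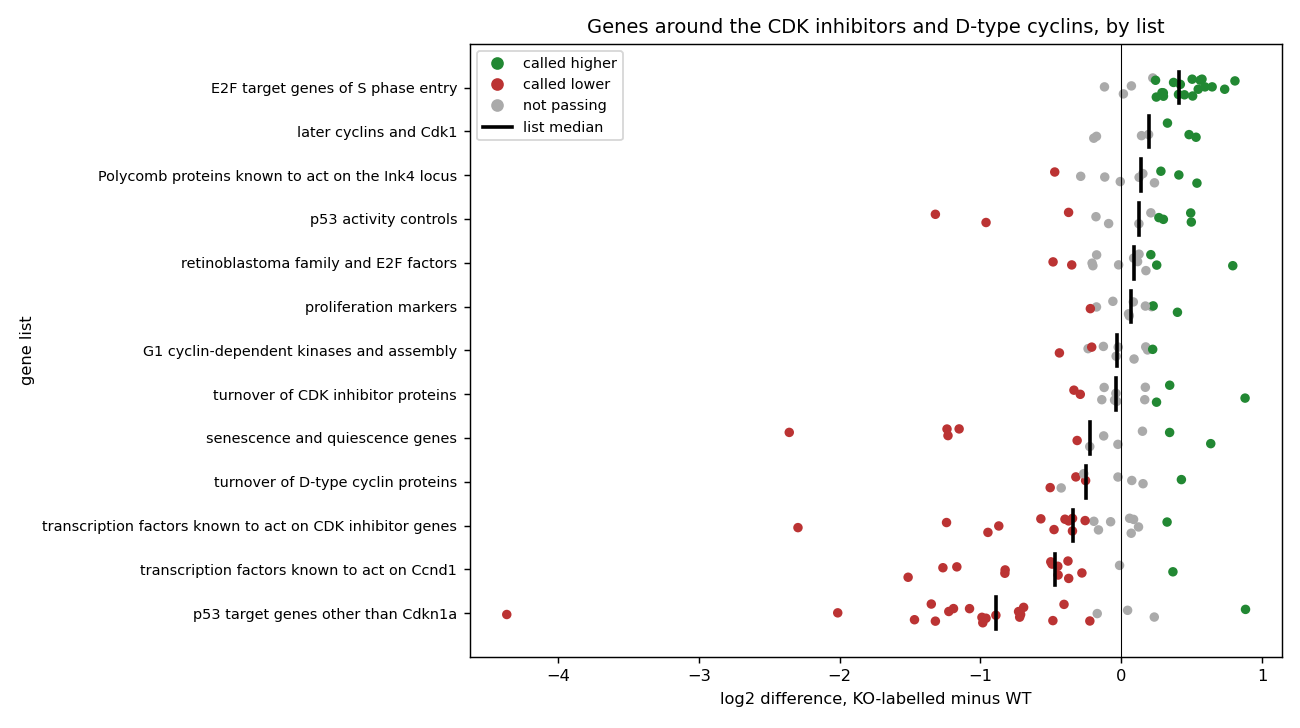
Log2 differences (horizontal axis, KO-labelled minus WT) of the genes tested in 13 lists (vertical axis), coloured by call, with each list's median as a black bar. The medians run from -0.89 for p53 targets to 0.41 for E2F targets of S phase entry. In the latter list 18 of 22 genes were called higher, against 17.6% of all genes tested. The lists were chosen with earlier results of these data known.

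The genes closest to Cdkn1a and Cdkn2c in their pattern over the 6 libraries were sought among 9136 other genes with a mean of at least 10 CPM, by the root mean square distance of centred log2 CPM. Closest to Cdkn1a were Cacna1c, a calcium channel subunit, at a distance of 0.0529, then Sema5a, a semaphorin, at 0.0577 and Nfil3, a transcription factor, at 0.0667, with log2 differences of -1.88, -1.81 and -1.96. Closest to Cdkn2c were Glt8d2 at 0.0212, Chaf1a, a subunit of the chromatin assembly factor and one of the listed E2F targets, at 0.0241, and Selenom, a selenoprotein, at 0.0256, with log2 differences of 0.53, 0.55 and 0.52. This distance mostly follows the difference between the groups, so the nearest genes have log2 differences like the member's by construction. Shared control of these genes was not tested.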

How the data were processed

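PolyA RNA of 6 libraries (3 WT, 3 labelled Ranbp2 KO) was sequenced after capture with an mRNA library kit, per the labels' protocols. The authors deposited expected counts for each gene, made with cutadapt and RSEM on GRCm38, per the submitters' processing notes. Tool versions, the aligner and strandedness were not given in the sources used here. RSEM shares out ambiguous reads, and 17.9% of the counts are fractions.

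Expected counts were rounded and filtered with filterByExpr (minimum count 10, minimum total 15), which left 15454 genes. They were scaled by TMM and compared with the two-sided quasi-likelihood F test of edgeR 4.0.16 (R 4.3.3) in a model of genotype alone. The Benjamini-Hochberg adjustment ran over all genes tested, and the threshold was 0.05. Intervals use the test's degrees of freedom. CPM are given as mean ± SD, n = 3. GENCODE M21, of the same build, gave 1-based positions and lengths for 55230 of 55471 identifiers. The code was tested on simulated data.

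All members are named. Of each list, the 2 called genes with the smallest adjusted p and at least 10 CPM in the higher group are named. The most abundant marker of each other cell type is named where it reached 1 CPM in a library. Other names are said to be chosen later or outside this rule, or stand beside a count they belong to. Members and lists were chosen with earlier results of these data known. Alternatives were other scaling, filters, DESeq2 1.42.0, limma-voom (limma 3.58.1), a replicate block, each library left out, and another gene length. No pair of libraries of a group matched within sampling noise.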

Additional observations from a re-analysis of the deposited data

How the results depend on the processing

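Cdkn1a, Cdkn1b, Cdkn2c and Ccnd1 kept their direction and their call in all 13 alternatives of the gene test, with adjusted p-values of at most 3.52e-06, 0.0206, 0.00712 and 0.00168. Cdkn2a kept its direction in all 13 and its call in 8; it was lost when KO-labelled library 1 (log2 difference 0.39), 2 (0.40) or 3 (0.45) or WT library 2 (0.37) or 3 (0.33) was left out, a range of 0.33 to 0.56 over the 6 left-out libraries. Cdkn2b, near 0, changed sign with library size alone (0.0052) and with a filter of 1 CPM in all libraries of a group (0.0065), in a range of -0.10 to 0.0405 over the left-out libraries. Cdkn2d, Ccnd2 and Ccnd3 were called in none of the alternatives, the smallest adjusted p-values being 0.0522, 0.0613 and 0.0569. The number of members called was 4 to 5, and of all genes 4353 to 6652. Per kilobase of the longest transcript, the share of Cdkn1a in the Cip/Kip sum was 89.1% in WT and 63.3% in KO-labelled libraries, and that of Ccnd1 in the D-type cyclins 66.1% and 58.4%. Replicate numbers do not pair the libraries (correlations of same-numbered deviations 0.0224, -0.0811 and -0.0343 over 15454 genes); with the replicate block, 4994 genes and 5 members were called, the same 5. Depth limits what can be said of Cdkn1c, and the count per gene does not separate p16 from Arf.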
